A study of Mus musculus with 6 samples.

Results

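Cell cycle and DNA replication genes were examined in the pancreas of mice that lack OCaR1 and of wild-type mice. A set of 47 genes was given by name: 13 of DNA replication, 14 of mitosis, and 20 cyclins, cyclin-dependent kinases, their inhibitors and regulators. Of these, 43 had a tested row in the authors' deposited gene table, which holds 11478 tested genes among 12016 rows. The other 4, Ccnb1, Plk1, Bub1 and Hmgb2, were not analysed here. RNA was sequenced from whole pancreas of 6 untreated male mice aged 3 weeks. The wild-type group had 3 mice (C57Bl6/N in the protocol, C56Bl6/N in the strain field of all samples) and the knockout group had 3 mice labelled OCar1-/-. How the null allele was made, and whether the groups were littermates, is not stated in the labels.

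The authors' table gives 1 FPKM value per genotype (fragments scaled by transcript length and library size), which combines the 3 mice of that genotype. Values of single mice were therefore not available, and no level below carries an SD or an n of its own. Levels can be compared between genes. Where a pair of values is given, the knockout comes first. Log2 differences are knockout over wild type with no pseudocount. The words called, rose and fell are kept for genes with q under 0.05 in the authors' Cuffdiff test. Depth is unknown, since no counts were used here. Tmem63a, the gene known to encode OCaR1, fell from 18.3 to 4.91 FPKM (q = 0.00152 in the authors' deposited table). Acinar markers fit the labelled tissue: 8 of 10 had a tested row, with summed levels of 119868 and 122967 FPKM.

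Cells enter division when D cyclins with Cdk4 or Cdk6, and then cyclin E with Cdk2, inactivate the retinoblastoma protein and release E2F factors. E2F targets include the MCM helicase subunits and the enzymes that make DNA precursors, while the genes of mitosis are switched on later by a complex of B-Myb and FoxM1 with MuvB. Cip/Kip and Ink4 proteins hold the kinases in check. In the young pancreas both acinar and islet cells still divide, and D cyclins are known to matter for the postnatal growth of beta cells.

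Few of these genes differed between the genotypes. Cyclin D2 (Ccnd2) fell in the knockout, 1.63-fold, and the kinase inhibitor gene Cdkn1c (p57) rose, 1.57-fold. No other member passed the test. The authors' deposited table thus called 2 of 43 members (4.65%), 1 higher and 1 lower, beside 7.54% of all tested genes (4.20% higher and 3.35% lower), so the share of members called was no higher than that of the table. At an unadjusted p under 0.05 there were 6 members (14.0%), 1 higher and 5 lower, beside 17.5% of all tested genes (8.36% higher and 9.11% lower). The median log2 difference was 0.00 over the members and -0.03 over all tested genes. Differences of at most 1.2-fold made up 28 of the 43 members (65.1%), beside 65.8% of the tested genes with a fold. The largest difference was 1.70-fold, in Ccne1, without a call.

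**Figure D1:**
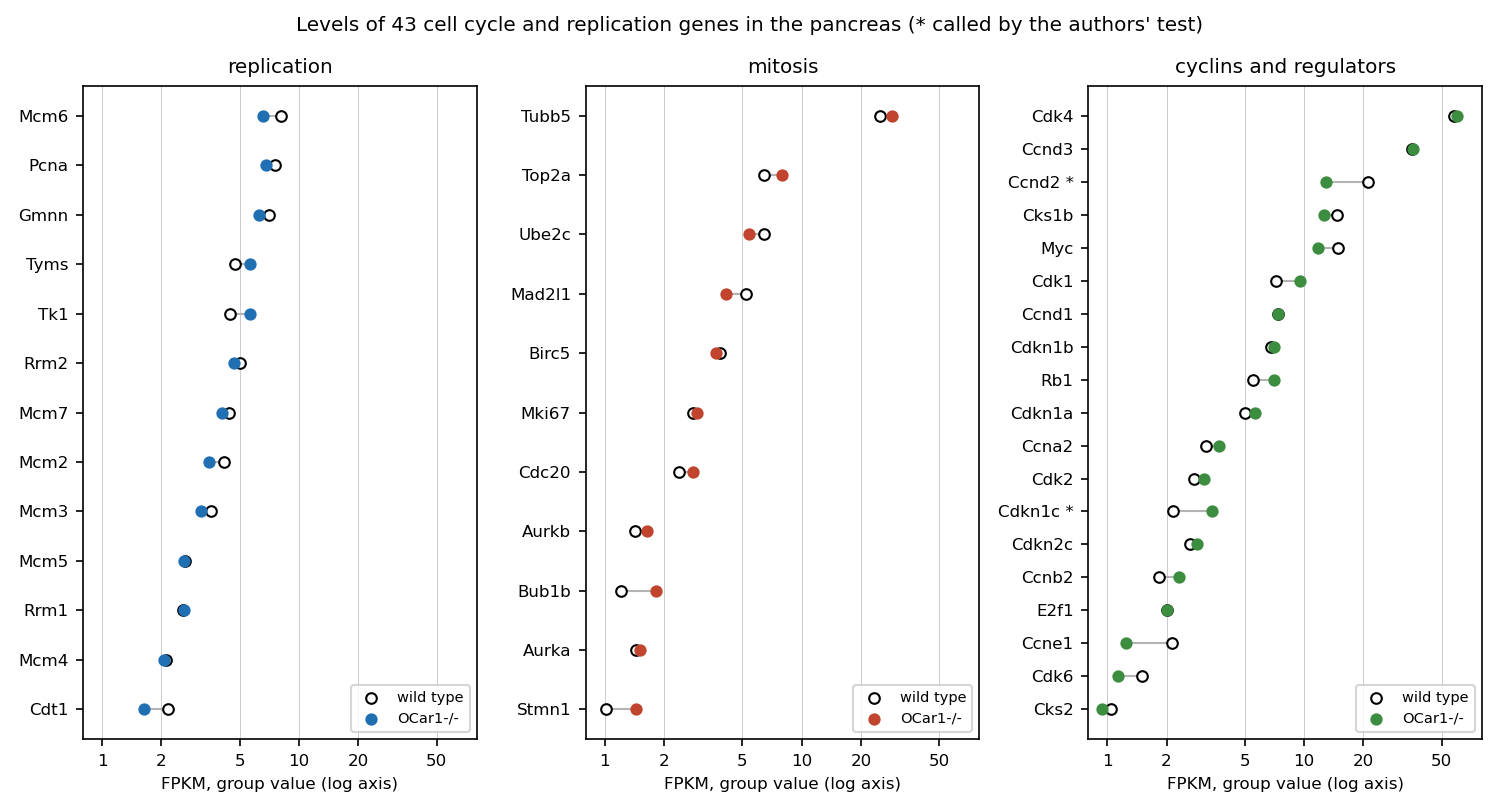
The FPKM group value of each of the 43 tested members is plotted on a log axis, with an open circle for wild type and a filled circle for OCar1-/-, in 3 panels by role; an asterisk marks the 2 called genes, Ccnd2 and Cdkn1c. Each point is 1 value for 3 mice, so no error bar can be drawn, and most pairs of circles lie close together.

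The members were of modest abundance in this tissue, where secretory transcripts dominate. Their levels ran from 0.937 FPKM (Cks2 in the knockout) to 59.9 FPKM (Cdk4 in the knockout). The median member stood at 3.69 against 4.17 FPKM, beside 4.70 and 4.74 FPKM for the median tested gene. Averaged over the genotypes, 37 of the 43 members lay under 10 FPKM and 25 under 5 FPKM. The proliferation antigen gene Mki67 had 2.95 and 2.81 FPKM. The table holds only rows above 1 FPKM in at least 1 genotype. Cks2 was the single member that reached this level in only 1 genotype. Of the 43 rows, 11 share their interval with another row, so that reads may have been split between genes: Cdk4 with Tspan31, Ccnd3 with Bysl, Ccnd1 with Oraov1, Rb1 with Lpar6 and Rcbtb2, Ccna2 with Exosc9, Mcm7 with Cops6, Ap4m1, Taf6 and Mir25, and Cdk6, Cdt1, Tk1, Stmn1 and Cdc20 as given with their values. These levels are uncertain to that extent. In whole tissue, a smaller number of dividing cells and less RNA per dividing cell cannot be told apart.

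The D cyclins, the first to respond to growth signals, differed from one another. Ccnd2 stood at 12.9 against 21.0 FPKM, a log2 difference of -0.70 (q = 0.00152 in the authors' deposited table). Its p of 5e-05 is the smallest that the table holds, and other genes share it, Cdkn1c and Tmem63a among them. Ccnd3 was the most abundant of the family and almost equal in the genotypes, at 35.8 and 35.3 FPKM (q = 0.988 in the authors' deposited table). Ccnd1 was equally close, at 7.33 and 7.35 FPKM (q = 0.997 in the authors' deposited table). The summed level of the 3 genes was 56.1 against 63.7 FPKM, and Ccnd2 made up 23.0% and 33.0% of it. The order Ccnd3, Ccnd2, Ccnd1 was the same in both genotypes. Whether the difference of Ccnd2 from Ccnd1 and Ccnd3 exceeds the spread between mice was not tested.

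The Ccnd2 row (ENSMUSG00000000184, protein-coding) covers chromosome 6, 127125779 to 127212411 (GRCm38), which is 86.6 kb. GENCODE M21 places Ccnd2 on the minus strand at 127125162 to 127152193, so the gene covers only part of that interval. The antisense genes 9330179D12Rik and Gm43126 overlap it. Use of strand in counting is not stated in the labels, so reads from stretches that Ccnd2 shares with these partners may be mixed. Whether their exons overlap was not checked.

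Among the 3 Cip/Kip inhibitors, Cdkn1c was the lowest in level and the one called. It stood at 3.39 against 2.16 FPKM, a log2 difference of 0.65 (q = 0.00152 in the authors' deposited table). Cdkn1c encodes p57, which binds and blocks cyclin-dependent kinases, and it is an imprinted gene expressed from the maternal copy. Its relatives Cdkn1b (p27) and Cdkn1a (p21) had 7.01 and 6.79 FPKM and 5.65 and 5.01 FPKM without a call (q = 0.926 and 0.651 in the authors' deposited table). Cdkn1c accounted for 21.1% of the summed Cip/Kip level in the knockout and 15.5% in wild type. Cdkn2c, an Ink4 inhibitor of Cdk4 and Cdk6, had 2.86 and 2.65 FPKM (q = 0.865 in the authors' deposited table). The Cdkn1c row (ENSMUSG00000037664, protein-coding) covers chromosome 7, 143458350 to 143461050 (GRCm38), on the minus strand. GENCODE M21 lists 1 antisense gene that overlaps it, Gm44732, and the same limit applies to its reads.

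**Figure D2:**
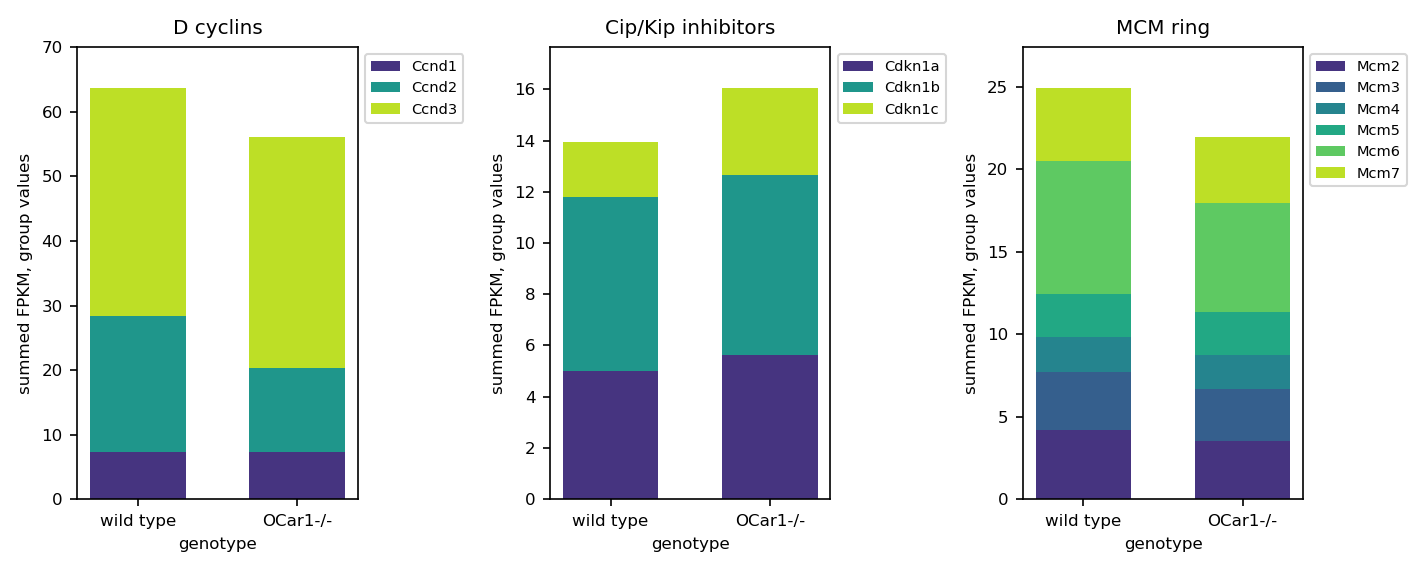
Stacked bars give the summed FPKM group values of 3 families by genotype, from 0, with 1 colour per gene and no error bars, since each value combines 3 mice. The Ccnd2 segment is shorter in OCar1-/- (12.9 against 21.0 FPKM) and the Cdkn1c segment longer (3.39 against 2.16 FPKM), while the 6 MCM genes keep the same order of levels in both bars.

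Other members that act at the start of the cycle missed the adjusted threshold. Ccne1, the cyclin E gene whose product drives entry into S phase, had 1.25 against 2.12 FPKM (p = 0.0126, q = 0.120 in the authors' deposited table). Myc, which encodes a transcription factor of growth, had 11.8 and 14.9 FPKM (p = 0.0125, q = 0.119 in the authors' deposited table). Cdk6, a partner of the D cyclins, had 1.13 and 1.50 FPKM (p = 0.0181, q = 0.152 in the authors' deposited table), in an interval shared with Gm17590. All of these were lower in the knockout in value, and none passed the test. Cdk4, the other D cyclin partner, was the most abundant member at 59.9 and 57.5 FPKM (q = 0.937 in the authors' deposited table). It made up 93.4% and 93.1% of the summed level of Cdk2, Cdk4 and Cdk6. Cdk2 had 3.11 and 2.77 FPKM, E2f1 2.01 and 2.01 FPKM, and Rb1, the retinoblastoma gene, 6.99 and 5.53 FPKM, with q from 0.638 to 0.997 in the authors' deposited table. Over the 19 tested cyclins and regulators the median log2 difference was 0.05, with 8 lower and 11 higher in value. Among all tested genes 55.2% were lower.

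The kinase of mitotic entry and its partners were not called. Cdk1 had 9.51 against 7.16 FPKM (p = 0.0618, q = 0.324 in the authors' deposited table). The cyclin genes Ccnb2 (2.31 and 1.84 FPKM) and Ccna2 (3.69 and 3.18 FPKM) were also higher in value, with q = 0.303 and 0.765 in the authors' deposited table. The small kinase-binding subunit genes lay the other way in value, Cks1b at 12.5 and 14.8 FPKM and Cks2 at 0.937 and 1.04 FPKM, with q = 0.669 and 0.905 in the authors' deposited table. Cks2 lies under 1 FPKM in the knockout, so its row could be listed only with a lower knockout value.

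**Figure D3:**
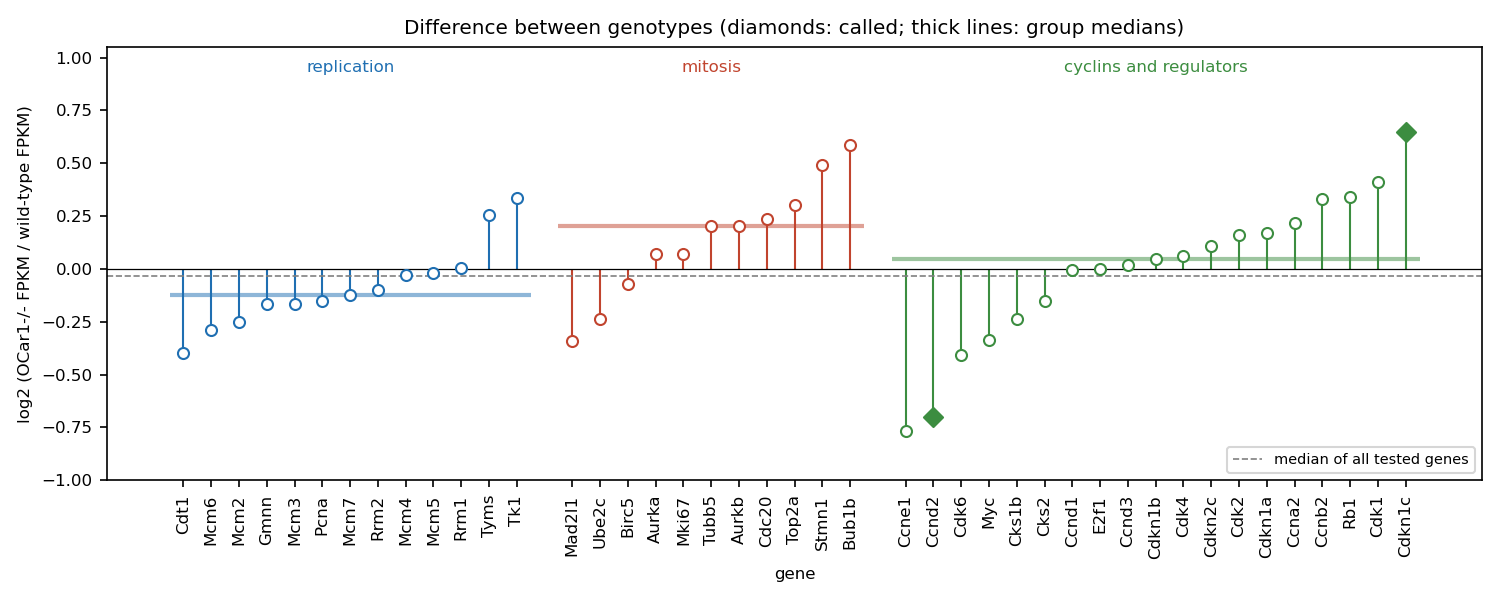
The log2 difference of each tested member, OCar1-/- over wild type, is plotted by role, with diamonds for the 2 called genes, thick lines for the medians of the 3 roles and a dashed line for the median of all tested genes (-0.03). Replication genes lie mostly below 0 and mitosis genes mostly above it, at sizes that did not pass the test in any of the 24 genes of these roles.

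Replication genes had a median log2 difference of -0.13. Of 13 tested members, 10 were lower and 3 higher in value in the knockout, beside 55.2% lower among all tested genes, and none was called by Cuffdiff (1 at an unadjusted p under 0.05). The MCM genes, which encode the ring that unwinds DNA, were lower in value for all 6 subunits. Mcm6 had 6.60 against 8.06 FPKM (q = 0.574 in the authors' deposited table). Mcm2 had 3.51 and 4.17 FPKM, with the smallest p of the role (p = 0.0395, q = 0.246 in the authors' deposited table). Mcm3 (3.17 and 3.56 FPKM) and Mcm7 (4.04 and 4.41 FPKM) differed less, and Mcm4 (2.06 and 2.10 FPKM) and Mcm5 (2.59 and 2.62 FPKM) hardly. Although the ring holds 1 copy of each subunit, transcript levels differed 3.20-fold from lowest to highest in the knockout and 3.83-fold in wild type. The order, from Mcm6 through Mcm7, Mcm2, Mcm3 and Mcm5 to Mcm4, was the same in both. When the differences were centred on the median of all tested genes, or scaled to the upper quartile, 4 of the 6 stayed below 0. Of the 13 replication members 8 were then below 0 and 5 above, beside 50.0% and 49.5% of all tested genes below 0.

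The partners of the ring were lower in value in the knockout as well, without a call. Pcna, the sliding clamp of the polymerases, had 6.81 and 7.56 FPKM. Gmnn, whose product geminin blocks relicensing, had 6.29 and 7.06 FPKM. Cdt1, which loads the ring, had 1.63 and 2.15 FPKM, but its row spans an interval of 4435 kb that 59 rows share, so this value is uncertain. The enzymes of DNA precursors went the other way or stayed level in value: thymidylate synthase (Tyms) had 5.66 and 4.74 FPKM, and thymidine kinase (Tk1), in an interval shared with Afmid and Syngr2, 5.64 and 4.47 FPKM. The ribonucleotide reductase genes Rrm1 (2.59 and 2.59 FPKM) and Rrm2 (4.67 and 4.99 FPKM) were nearly equal. The q-values of these 7 genes lay between 0.501 and 0.996 in the authors' deposited table.

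Mitosis genes had a median log2 difference of 0.20. Of 11 tested members, 3 were lower and 8 higher in value, beside 55.2% lower among all tested genes. None of the 11 was called by Cuffdiff (0 at an unadjusted p under 0.05). Top2a, the topoisomerase that untangles sister chromosomes, had 7.94 against 6.45 FPKM (q = 0.496 in the authors' deposited table). The spindle checkpoint gene Bub1b had 1.82 and 1.21 FPKM (q = 0.591 in the authors' deposited table), and Stmn1, which encodes the microtubule regulator stathmin, 1.43 and 1.02 FPKM (q = 0.413 in the authors' deposited table, in an interval shared with Gm23634). Tubb5, a beta tubulin, was the most abundant of the role at 28.8 and 25.1 FPKM (q = 0.370 in the authors' deposited table). The aurora kinase genes Aurka (1.51 and 1.44 FPKM) and Aurkb (1.64 and 1.43 FPKM) and the anaphase activator gene Cdc20 (2.82 and 2.39 FPKM, in an interval shared with Elovl1) were also higher in value. The checkpoint gene Mad2l1 (4.14 and 5.24 FPKM), the ubiquitin-conjugating enzyme gene Ube2c (5.43 and 6.41 FPKM) and Birc5, encoding the passenger protein survivin (3.66 and 3.84 FPKM), were lower in value. The lower and higher members thus included genes of the same step: Ube2c and Cdc20 both serve the anaphase-promoting complex.

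The sizes of these shifts depended on the scaling. Digestive enzyme and granule genes made up 63.7% of the summed FPKM in the knockout and 66.5% in wild type. Scaling each genotype to the remaining FPKM moved every log2 difference by -0.16 and put 75.4% of all tested genes below 0. The replication median was then -0.29, with 11 genes lower and 2 higher. The median of cyclins and regulators turned to -0.12, and the mitosis median was 0.04, with 5 lower and 6 higher. Among members with at least 5 FPKM in 1 genotype, the mitosis median was -0.02 over 4 genes, with Top2a and Tubb5 higher and Ube2c and Mad2l1 lower in value. Without rows that share an interval it was 0.07 over 9 genes. Whether the replication and mitosis roles differ from each other beyond the spread between mice was not tested, since no value per mouse was available.

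**Figure D4:**
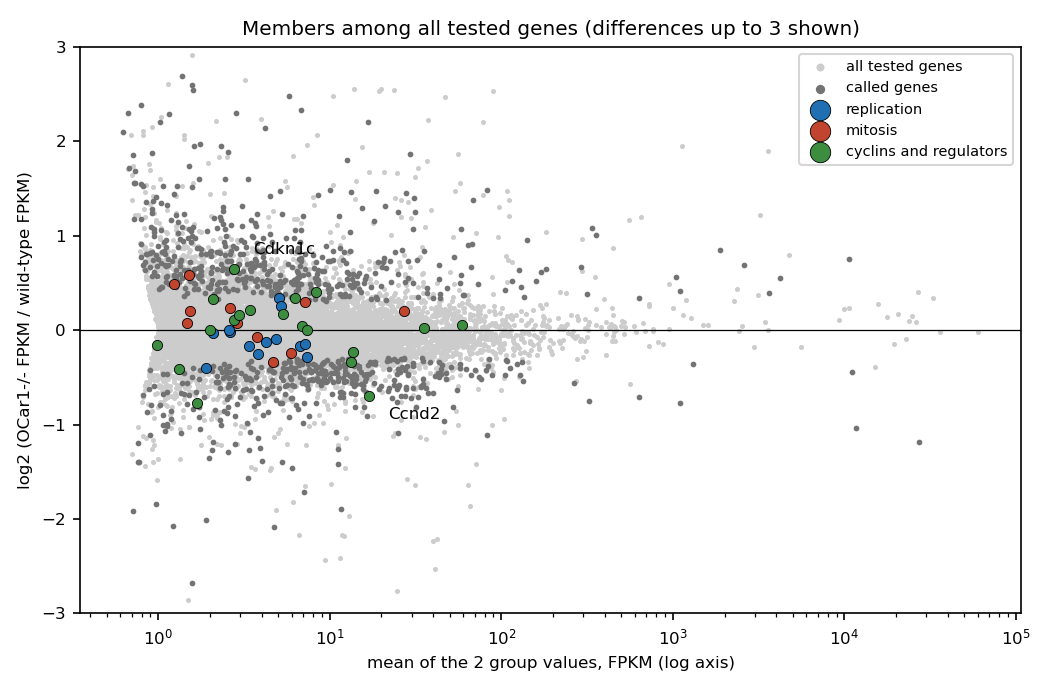
Each point is 1 tested gene, with the mean of the 2 group values on a log axis in FPKM and the log2 difference, OCar1-/- over wild type, on the vertical axis; dark grey marks called genes and colours the members by role. The members lie within the cloud of all tested genes, Ccnd2 and Cdkn1c among the called ones, and differences beyond 3 are not drawn.

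Promoter sequences of 4 members are shown as examples of 3 motifs known from cell cycle promoters: the replication members Mcm6 and Mcm5, the mitosis member Top2a, and Cdk1 of the cyclins and regulators. RefSeq promoter windows (GRCm38.p6, 250 bases before to 50 bases after the start) were found by symbol for 33 of the 43 members; Ccnd2 and Cdkn1c had none. In the sequences below, the 160 bases before the start site are written 5′ to 3′ on the strand of the gene. Capitals mark E2F motifs (TTTGGCGC, TTTCCCGC, TTTGCCGC or TTTCGCGC), the cell cycle homology element (TTTGAA or TTCGAA) and the CCAAT box (CCAAT), each on either strand, and motifs that overlap run together.
Mcm6 (chr1:128359706-128359865, minus strand): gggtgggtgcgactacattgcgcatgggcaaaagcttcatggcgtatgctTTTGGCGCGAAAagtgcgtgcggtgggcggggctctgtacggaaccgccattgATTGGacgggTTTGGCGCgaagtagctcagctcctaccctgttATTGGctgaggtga
Mcm5 (chr8:75109349-75109508, plus strand): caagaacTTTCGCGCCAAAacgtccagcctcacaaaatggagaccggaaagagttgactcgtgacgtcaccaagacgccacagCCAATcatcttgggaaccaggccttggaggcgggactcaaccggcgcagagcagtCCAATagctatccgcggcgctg
Top2a (chr11:99024190-99024349, minus strand): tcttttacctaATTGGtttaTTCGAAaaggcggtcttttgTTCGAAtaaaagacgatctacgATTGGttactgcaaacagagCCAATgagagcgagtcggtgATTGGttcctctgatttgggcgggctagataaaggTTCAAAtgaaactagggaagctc
Cdk1 (chr10:69352913-69353072, minus strand): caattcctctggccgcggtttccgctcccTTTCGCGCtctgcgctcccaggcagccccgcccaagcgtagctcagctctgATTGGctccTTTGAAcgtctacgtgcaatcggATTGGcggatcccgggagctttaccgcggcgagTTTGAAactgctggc

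Mcm6 and Mcm5 show E2F motifs with CCAAT boxes downstream of the first of them, and Top2a shows the homology element with several CCAAT boxes. Cdk1 holds all of these motifs. An E2F motif was found in the windows of 5 of 11 replication members, 0 of 9 mitosis members and 2 of 13 cyclins and regulators, beside 2.61% of all 27025 genes with a window and 4.68% of the 8127 of them that were tested. The homology element was found in 2 of 11 replication members, 6 of 9 mitosis members and 3 of 13 cyclins and regulators, beside 21.7% of all genes and 15.5% of the tested ones. The CCAAT box was found in 8 of 11, 7 of 9 and 8 of 13, beside 41.1% and 42.7%. Differences between the roles in these shares were not tested. These are matches of letters and not measured binding sites, and an absent match says only that the letters are not in the window.

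Beyond the members, 195 of 244 further cell cycle genes were tested, in 12 lists by function. The authors' deposited table called 10 of them (5.13%), 6 higher and 4 lower, again beside 7.54% of all tested genes, and their median log2 difference was -0.01. Most of the calls, 6 of the 10, were in the list of the p53 response, where 17 genes were tested. Gadd45g (41.4 and 19.6 FPKM), Gadd45b (6.13 and 4.08 FPKM), Btg2 (13.7 and 9.83 FPKM) and Sesn1 (18.6 and 13.1 FPKM) rose, while Sesn2 (2.21 and 3.39 FPKM) and Plk2 (11.8 and 16.9 FPKM) fell, each with q = 0.00152 in the authors' deposited table. The Gadd45 and Btg2 products slow the cycle and are also induced by stress without p53, and the sestrins respond to stress and amino acid supply. The p53 target Cdkn1a is the member given above at 5.65 and 5.01 FPKM without a call. The part of p53 in these values was not tested. The median of the p53 response list was 0.20, with 12 genes higher and 5 lower in value. It was 0.035 when scaled to FPKM without digestive enzymes, with 9 higher and 8 lower. Of all tested genes 55.2% were lower in value, and 75.4% under that scaling.

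Replication lists resembled the replication members in the sign of their medians, and few of their genes were called. In origin licensing and firing, 13 of 16 genes were lower in value (median -0.11), while the 1 called gene went the other way. Cdc7, the kinase gene that fires origins, rose from 0.902 to 1.50 FPKM (q = 0.00152 in the authors' deposited table). Its wild-type value lies under 1 FPKM, so the row could be listed only with a higher knockout value. With at least 1 FPKM in both genotypes, 5 of the other pathway genes were called higher in place of 6. At the replication fork 15 of 24 genes (62.5%) were lower (median -0.09), and in nucleotide supply 13 of 17 (76.5%, median -0.08), beside 55.2% of all tested genes. Centred on the median of all tested genes, the fork list had 13 of 24 lower (-0.058), nucleotide supply 11 of 17 (-0.044) and the origin list 12 of 16 (-0.079). Scaled to FPKM without digestive enzymes, they had 22 of 24 (-0.26), 15 of 17 (-0.24) and 13 of 16 (-0.28), beside 75.4% of all tested genes. The fork and nucleotide supply lists held 0 calls by Cuffdiff, with 2 and 1 genes at an unadjusted p under 0.05. Of 15 chromatin assembly and histone genes 2 fell, the linker histone gene Hist1h1c (24.8 and 40.7 FPKM) and the histone chaperone gene Asf1a (3.90 and 5.26 FPKM), with q = 0.00152 and 0.0407 in the authors' deposited table. The median of that list was -0.12. The histone value covers only transcripts that passed poly(A) selection.

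Mitotic lists lay nearer to 0 or above it. In spindle and cytokinesis 11 of 13 tested genes were higher in value (median 0.23), and 8 of 13 (median 0.06) when scaled to FPKM without digestive enzymes. Of all tested genes 55.2% were lower in value, and 75.4% under that scaling. Tubb4b, a beta tubulin, was the 1 call of the spindle list and rose from 8.61 to 11.3 FPKM (q = 0.0339 in the authors' deposited table). A further 14 genes of that list were not analysed here, among them most of its kinesins. The kinetochore and spindle checkpoint list (13 genes, median 0.06), the anaphase-promoting complex (15 genes, 0.03) and condensin and cohesin (18 genes, 0.01) held 0 calls by Cuffdiff, with 0, 0 and 1 genes at an unadjusted p under 0.05. So did the other cyclins, kinases and inhibitors (18 genes, 0.05), the pocket protein, E2F and DREAM list (14 genes, -0.03) and the Myc network (16 genes, -0.02), with 2, 0 and 0 such genes. Scaled to FPKM without digestive enzymes, the kinetochore, anaphase, condensin and cohesin, and other cyclin medians turned to -0.11, -0.14, -0.15 and -0.12. Centred on the median of all tested genes, the pocket protein and Myc medians turned to 0.00 and 0.01. Cenpf (1.74 and 0.809 FPKM) and Sgol1 (1.07 and 0.757 FPKM) of the kinetochore list could be listed only with a higher knockout value. So could Ncapg2 (1.01 and 0.957 FPKM), Lin52 (1.02 and 0.828 FPKM) and Mycn (1.22 and 0.999 FPKM) of the condensin, pocket protein and Myc lists. The medians of these lists include them.

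**Figure D5:**
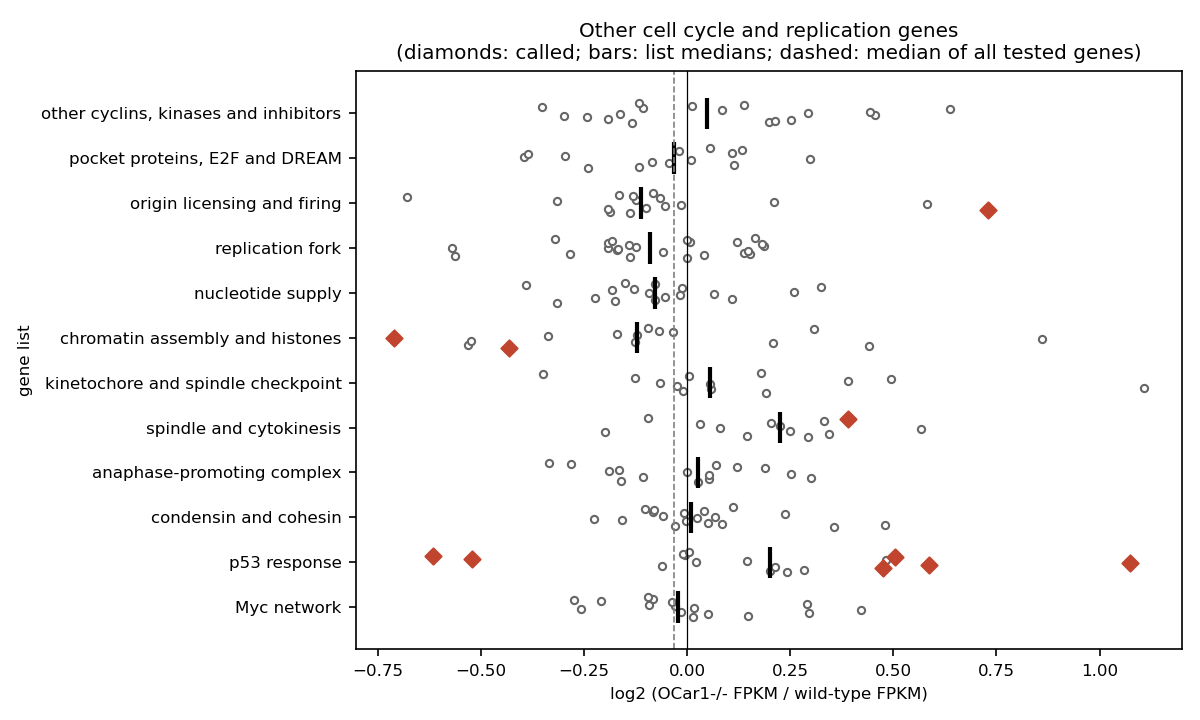
The log2 difference, OCar1-/- over wild type, of 195 further cell cycle genes is plotted in 12 lists, with diamonds for the 10 called genes, a bar at each list median and a dashed line at the median of all tested genes (-0.03). A gene in more than 1 list is drawn in each; 6 of the 10 diamonds lie in the p53 response list.

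Markers of other cells moved with the genotype and stand beside these values. Among all tested genes 4.20% rose and 3.35% fell, and 17.5% had an unadjusted p under 0.05. Of tested islet markers 11 of 15 rose (summed level 4127 against 2573 FPKM), of macrophage and monocyte markers 10 of 11 (126 and 71.1 FPKM), of B and plasma cell markers 3 of 4 (140 and 55.3 FPKM) and of fat cell markers 6 of 7 (151 and 71.2 FPKM). Endothelial markers rose in 5 of 10 (67.0 and 52.4 FPKM) and stellate cell and fibroblast markers in 6 of 10 (493 and 377 FPKM). Smooth muscle markers fell in 5 of 7 (31.9 and 67.9 FPKM), and acinar markers in 3 of 8. Smaller shares rose among duct (1 of 7, 239 and 219 FPKM), mesothelial (2 of 6, 122 and 137 FPKM) and erythroid markers (2 of 6, 449 and 384 FPKM). Granulocyte and mast cell markers held 0 calls of 3 by Cuffdiff, with 2 at an unadjusted p under 0.05 (8.31 and 5.05 FPKM). Of 9 T and NK cell markers 1 had a row, uncalled (0.821 and 1.61 FPKM, 0 at an unadjusted p under 0.05), and of 6 Schwann cell and neuron markers none did. The lowest wild-type values of the islet, macrophage, B cell, fat cell and erythroid markers were 0.614, 0.646, 0.859, 0.963 and 0.421 FPKM. A row under 1 FPKM in wild type could be listed only with a higher knockout value. The T and NK cell row could be listed only with a lower one. Duct, mesothelial and smooth muscle markers also reached below 1 FPKM, with lowest values of 0.780, 0.951 and 0.307 FPKM. Counts and sums include such rows. The part of these cells in the values of Ccnd2, Cdkn1c and the other members was not tested.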

How the data were processed

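Poly(A)-selected RNA (2.5 µg, RNA integrity 8.20 to 9.10) was sequenced as single reads of 50 bases, per the labels' protocols. The tools were Cufflinks 2.2.1 with Cuffdiff and STAR 2.5.1b, on GRCm38, per the submitters' processing notes. Annotation release, strand and scaling settings: not given in the sources used here. In the deposited gene table, each row holds 1 FPKM value per genotype, made by the authors, and the p-value and q-value of their Cuffdiff test, per the file headers. Columns of single samples numbered 0. No test was added: the deposited calls (q under 0.05, over the whole table) were used, since the planned test on values per library was not possible. Fold changes were recomputed from FPKM. A value under 0.01 FPKM counts as 0, and 37 tested genes so got no fold. The 538 untested rows were left out. Interval starts, counted from 0, were shifted by 1. Gene overlaps came from GENCODE M21 and promoter windows from RefSeq; 33 of the 37 member windows end in bases of a transcript of their gene, and none does when read backwards. The calculations were tested on simulated data (Python 3.11.15, pandas 2.3.3).

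The members and all lists were chosen with earlier results of these data known. Named genes were every tested member, up to 4 called genes of each other list (smallest p, then largest fold) and Tmem63a. In the p53 list, where 6 genes were called, the remaining 2 are named besides. Imprinted genes, looked up later, and uncalled genes of the other lists under 1 FPKM in 1 genotype are named outside this rule. Alternatives were other thresholds, pseudocounts of 0.5 and 1 FPKM, filters on low values, 3 scalings and overlapping genes. With 1 value per genotype, the precision of a level is unknown, and p-values are the authors' estimate over 3 mice per group.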

Additional observations from a re-analysis of the deposited data

How the results depend on the processing

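No paired analysis was possible because the table holds 1 value per genotype; leaving out a mouse could not be done for the same reason. Ccnd2 and Cdkn1c were also called at q under 0.01, after adjusting p again over all tested genes, and without shared intervals. With at least 5 FPKM in 1 genotype, 0 members were called higher, since Cdkn1c lies below that level. Without the 20 members that overlap another GENCODE gene on either strand, a choice made after seeing the data, 0 were called higher and 0 lower of 23; this drops both called genes. At an unadjusted p under 0.05, 5 members were lower, and of the other pathway genes 12 were lower in place of 4.

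The median of all members (0.00) was 0.020 with at least 5 FPKM, 0.012 with at least 1 FPKM in both genotypes, -0.010 without shared intervals, -0.029 without overlapping genes, 0.037 centred on the median of all genes, -0.16 scaled without digestive enzymes and 0.040 scaled to the upper quartile. In the same order of scalings, the replication median was -0.092, -0.29 and -0.089, the mitosis median 0.23, 0.037 and 0.24, and that of cyclins and regulators 0.081, -0.12 and 0.084. Pseudocounts of 0.5 and 1 FPKM gave -0.11 and -0.10 for replication, 0.15 and 0.12 for mitosis, and 0.045 and 0.042 for cyclins and regulators. With at least 5 FPKM the roles had -0.15, -0.018 and 0.034, and without shared intervals replication had -0.12 and mitosis 0.072. Counting cyclins A2 and B2, Cdk1 and the Cks genes with mitosis left 0.034 for the other cyclins and regulators. Uncalled members near 0 changed sign with the scaling. Among them, Mcm4 and Mcm5 were above 0 when centred, and Mki67, Aurka, Cdkn1b and Cdk4 below 0 without digestive enzymes. Depth and the spread between mice are unknown and limit all values.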

Other observations

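Cdkn1c is an imprinted gene, and other imprinted genes were looked up after its value was seen. Of 22 such genes, a list made from background knowledge at that point, 17 were tested besides Cdkn1c. The authors' deposited table called 3 of them, all higher in the knockout (17.6%, beside 7.54% of all tested genes). Dlk1, which encodes a membrane protein of the Notch ligand type, rose from 1.57 to 3.31 FPKM, and the zinc finger gene Peg3 from 7.23 to 9.28 FPKM. The noncoding Mirg, which lies on chromosome 12 as Dlk1 does and shares its interval with other rows, rose from 0.579 to 1.23 FPKM. Since its wild-type value lies under 1 FPKM, Mirg could be listed only with a higher knockout value, and the 17.6% includes it. The growth factor gene Igf2 had 10.1 and 6.49 FPKM (p = 0.0137, q = 0.126 in the authors' deposited table), and its neighbour H19 had 20.3 and 14.5 FPKM (p = 0.0135, q = 0.125 in the authors' deposited table). At an unadjusted p under 0.05 there were 7 of 17 (41.2%), all higher, beside 17.5% of all tested genes (8.36% higher). They include Mirg, with the same limit, and Meg3 (26.8 and 20.6 FPKM) and Rian (20.3 and 13.9 FPKM). Meg3 and Rian lie between Dlk1 and Mirg on chromosome 12. With Igf2 and H19 as neighbours on chromosome 7, the 7 genes are not 7 separate loci. The rows of Meg3, Rian and H19 also share their intervals with other rows. In value, 10 of the 17 tested genes were higher and 7 lower, and the median was 0.04. The list was not fixed in advance and got no test. Stromal and islet markers were higher in the same group, and their part in these values was not tested.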
